A study of Mus musculus with 20 samples.

Results

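Expression of 10 genes of the Notch pathway was followed in mouse brain progenitor cell lines before and after genetic modification. The set held the receptors Notch1, Notch2 and Notch3, the ligands Dll1, Dll3 and Jag1, and the targets Hes1, Hes5, Hey1 and Nrarp. These genes were taken by name, for their place in the pathway, with earlier results of these data known. All 10 were among the 18193 genes that the arrays measured with a probe set of a single symbol. They had 17 such probe sets in all, and the brightest one of each gene stood for it in the comparisons. These were 1418634_at for Notch1, 1455556_at for Notch2, 1421965_s_at for Notch3, 1419204_at for Dll1, 1449236_at for Dll3, 1434070_at for Jag1, 1418102_at for Hes1, 1456010_x_at for Hes5, 1415999_at for Hey1 and 1417985_at for Nrarp.

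Total RNA was measured on 20 single-colour Affymetrix arrays, in 4 groups of 5. The groups were control progenitors of embryonic origin, embryonic progenitors that had been transduced, control progenitors of postnatal origin, and postnatal progenitors that had been transformed. Transduction is named as a genetic modification, but neither the introduced sequence nor the transforming agent is given in the sources used here, and the same holds for strain, exact age and culture medium. A difference between embryonic and postnatal cells therefore also holds any difference in the brain region or the preparation of the lines. All samples are labelled as cell lines and are numbered within a group without a statement that they were separate cultures, so the p-values take in no more than the spread among the arrays of a group, part or all of which may be technical.

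Notch receptors are cleaved when they bind a Delta or Jagged ligand on a neighbouring cell, and the freed intracellular part enters the nucleus, where it joins the DNA-binding protein RBPJ and switches target genes on. The Hes and Hey targets are repressors that hold down proneural genes and ligand genes, so that a cell receiving the signal stays a progenitor while its ligand-rich neighbour matures. In the developing brain the pathway is known for keeping radial glia undifferentiated and for slowing the maturation of oligodendrocyte progenitors.

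Signals are given in the linear units of the deposited table. Background on each array, taken as the 95th percentile of 27 bacterial control probe sets, lay between 107 and 221, and between 61.3% and 73.2% of probe sets were above it. Log2 values of arrays of a group correlated between 0.947 and 0.970, and no pair of arrays was identical. Postnatal control arrays 4 and 5 stood apart from the other 3 of their group. The proliferation gene Mki67 read 5929 and 4351 on them and 37266, 34816 and 35822 on arrays 1 to 3, while postnatal transformed arrays read between 3848 and 5403. Changes that rest on postnatal control cells are therefore also given without these 2 arrays. The series title calls the cells glial progenitors, and the levels of 7 oligodendrocyte progenitor markers were looked at. All 7 were above background on every control array and every postnatal transformed array. Only 4 of 7 were so on every embryonic transduced array, where Sox10 was above background on 2 of 5 arrays and Gpr17 on 1 of 5. Of 7 neuron markers, however, 7 were above background on every embryonic control array and 6 on every postnatal control array. All 7 radial glia markers were above background on every control array. Presence above background therefore does not set glial progenitors apart from other cell types.

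The stretch of 250 bases before the start of transcription was available from RefSeq for 8 of the 10 genes, on build GRCm38.p6. Sequences of Hes5 and Nrarp are shown because both are targets of RBPJ and changed in unlike ways, and those of Dll1 and Dll3 because both ligands fell in both modified lines. Capitals mark matches to the core RBPJ site, GTGGGAA, or to the E-box CAGCTG, a form that proneural factors bind. Both strands were searched, and no matches overlapped.
Hes5, chr4:154960673-154960922, plus strand: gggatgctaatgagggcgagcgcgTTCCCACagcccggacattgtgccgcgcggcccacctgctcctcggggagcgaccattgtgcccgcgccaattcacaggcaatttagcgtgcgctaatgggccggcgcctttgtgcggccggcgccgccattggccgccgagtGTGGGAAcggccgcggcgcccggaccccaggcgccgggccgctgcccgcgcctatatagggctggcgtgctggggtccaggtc
Nrarp, chr2:25180508-25180757, plus strand: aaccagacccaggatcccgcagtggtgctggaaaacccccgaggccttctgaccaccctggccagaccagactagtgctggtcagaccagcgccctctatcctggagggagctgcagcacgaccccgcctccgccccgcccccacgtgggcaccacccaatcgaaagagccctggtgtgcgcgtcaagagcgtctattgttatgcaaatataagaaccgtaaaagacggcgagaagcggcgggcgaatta
Dll1, chr17:15376933-15377182, minus strand: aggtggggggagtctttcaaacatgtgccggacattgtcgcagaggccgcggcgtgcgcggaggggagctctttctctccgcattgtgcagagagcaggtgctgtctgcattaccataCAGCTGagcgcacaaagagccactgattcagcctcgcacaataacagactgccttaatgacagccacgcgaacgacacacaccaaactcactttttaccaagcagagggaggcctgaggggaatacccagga
Dll3, chr7:28301786-28302035, minus strand: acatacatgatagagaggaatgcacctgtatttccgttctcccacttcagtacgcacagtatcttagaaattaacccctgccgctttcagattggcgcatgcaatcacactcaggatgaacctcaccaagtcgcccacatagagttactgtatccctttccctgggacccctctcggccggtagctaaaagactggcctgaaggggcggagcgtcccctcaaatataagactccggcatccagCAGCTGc

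Hes5 held 2 core RBPJ matches, which began 226 and 83 bases before its start, in opposite orientations. Of 32851 windows of this length, 5.415% held at least 1 such match and 0.161% held 2 or more. Nrarp had no match to either motif in its window. One of the 2 listed starts of Dll1 had an E-box 132 bases upstream, Dll3 had one 7 bases upstream and Jag1 had one 82 bases upstream, against 13% of all windows. The windows of Notch1, Notch2 and Notch3 held neither motif. A match describes the letters only.

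**Figure D1:**
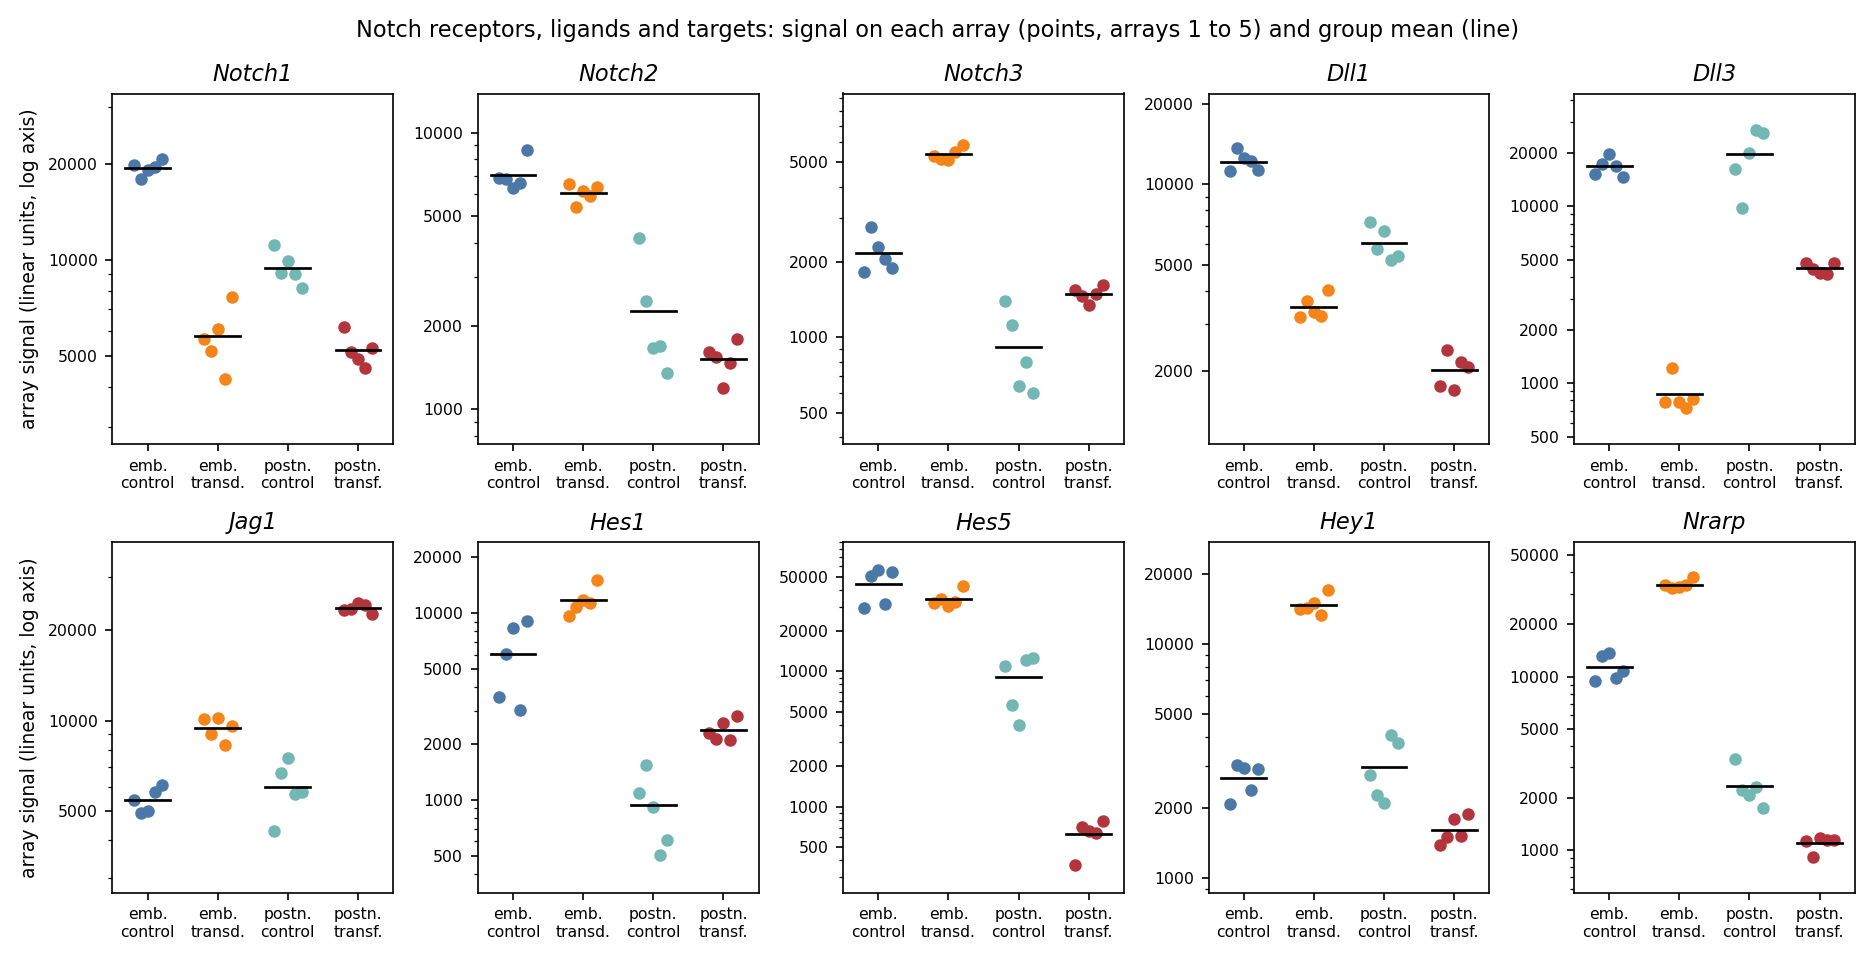
Signal of each gene on every array, in linear units on a log axis, for the 4 groups; points are arrays 1 to 5 and the line is the group mean. Hey1 lay between 13247 and 17056 on embryonic transduced arrays and between 1384 and 4082 on all others, whereas Jag1 was highest on postnatal transformed arrays, at 22686 to 24578.

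Transduction of embryonic cells and transformation of postnatal cells were each compared with their own controls, and a gene was called when its adjusted p was under 0.05 and its change at least 2-fold. In embryonic cells Hes1, Hey1, Nrarp and Notch3 rose, and Notch1, Dll1 and Dll3 fell. In postnatal cells Jag1 and Hes1 rose, and Dll1, Dll3, Hes5 and Nrarp fell. Dll1, Dll3 and Hes1 thus moved the same way in both lines, and Nrarp rose in one and fell in the other. Less of a transcript per cell and fewer cells that make it cannot be told apart in these bulk samples.

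Of the 10 genes, 4 rose and 3 fell in embryonic cells, against 8.61% and 5.74% of all genes. In postnatal cells 2 rose and 4 fell, against 9.56% and 6.4% of all genes. The groups did not overlap for 8 of the 10 genes in the embryonic comparison, where 34.8% of all genes did not overlap, and for 8 of 10 in the postnatal comparison, where the share was 32.2%. The median log2 change of the 10 genes was 0.29 in embryonic cells, beside 0.075 over all genes, and -0.85 in postnatal cells, beside -0.0024. All 10 were above background on every array, which does not hold for all genes. They were also chosen with earlier results known, so the shares given here and below are no test of the set.

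**Figure D2:**
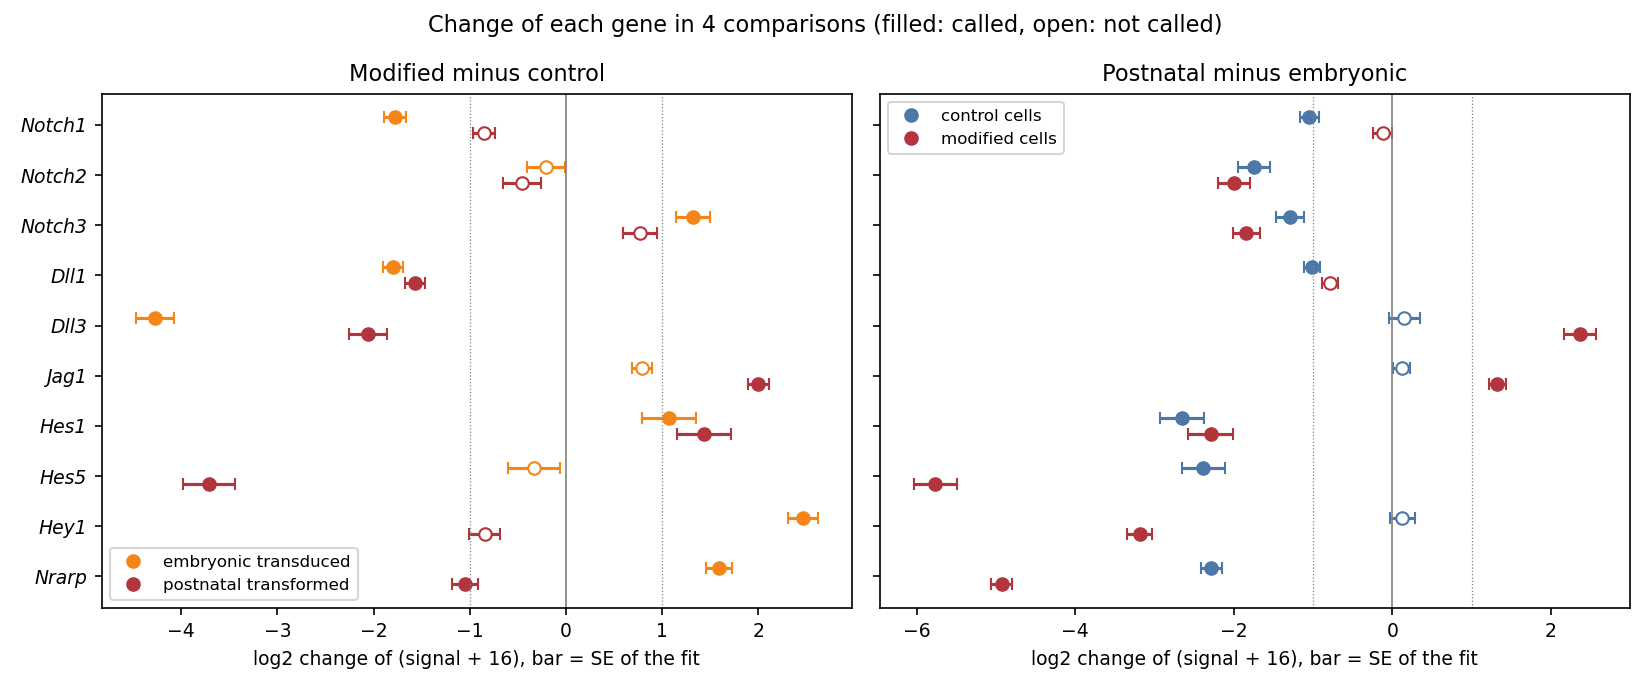
Log2 change of each gene with its standard error from the fit; the left panel sets modified cells against controls and the right panel postnatal against embryonic cells, with filled points for called changes and dotted lines at a 2-fold change. Hey1 and Nrarp lie on opposite sides of 0 in the 2 modified lines, at 2.46 and -0.85 and at 1.59 and -1.05.

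The receptors did not share a direction in embryonic cells: Notch1 fell, Notch3 rose, and Notch2 passed no threshold. None of the 3 was called in postnatal cells. Notch1 encodes a receptor that maintains neural progenitors. Notch1 read 19817, 17947, 19069, 19571 and 20707 on embryonic control arrays 1 to 5 and 5639.7, 5193, 6093, 4237 and 7639.7 after transduction. Every transduced array lay below every control array. Notch1 read 11097, 9062, 9882, 9032 and 8165 on postnatal control arrays and 6166, 5154, 4879, 4592 and 5309 after transformation, again without overlap. The log2 change was -1.78 ± 0.12 (SE) in embryonic cells, a 3.42-fold fall (limma, adjusted p = 3.81e-11), and -0.85 ± 0.12 in postnatal cells, short of 2-fold (adjusted p = 2.29e-06). The latter was -0.94 without postnatal control arrays 4 and 5. The embryonic value rests on the brighter probe set. The second set of Notch1, 1418633_at, gave -0.49 with overlapping groups (adjusted p = 0.00266) and was not called.

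Notch2 encodes a receptor that neural progenitors and glia also carry. Notch2 read 6862, 6800.3, 6289, 6569 and 8660.3 on embryonic control arrays and 6531, 5386, 6168, 5878 and 6381 after transduction. These ranges overlapped, and array 5 stood above the other controls. Notch2 read 4154, 2456, 1660.0, 1688 and 1349.6 on postnatal control arrays and 1609, 1548, 1195, 1473 and 1792 after transformation. Array 1 of the postnatal controls was the highest and the remaining ranges overlapped. Its log2 change was -0.21 ± 0.20 in embryonic cells (adjusted p = 0.477) and -0.46 ± 0.20 in postnatal cells (adjusted p = 0.0758). Without postnatal control arrays 4 and 5 the postnatal change was -0.76 (adjusted p = 0.00154), still under 2-fold.

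Notch3 encodes a receptor best known from vascular smooth muscle and pericytes, and found in neural progenitors too. Notch3 read 1826, 2751, 2302, 2054 and 1887 on embryonic control arrays and 5293, 5147, 5125, 5474 and 5883 after transduction. All 5 transduced arrays were above all 5 controls and lay close together. Notch3 read 1401, 1120.4, 641, 800.0 and 599 on postnatal control arrays and 1551, 1459.8, 1343, 1491 and 1614 after transformation. Postnatal control array 1 reached into the transformed range. The log2 change was 1.32 ± 0.17 in embryonic cells, 2.5-fold (adjusted p = 1.89e-06), and 0.77 ± 0.17 in postnatal cells, short of 2-fold (adjusted p = 0.000885). The second set of Notch3, 1421964_at, was called in embryonic cells too, at 1.15, and gave 0.81 in postnatal cells. Leaving out postnatal control arrays 4 and 5 took the postnatal change of the brighter set to 0.56. That set, marked _s_at, is of a kind whose probes can match more than 1 transcript. Of 7 pericyte and smooth muscle markers, 2 fell and none rose in the embryonic comparison, and Anpep was below background on all 20 arrays. The summed signal of 10053 to 24723 on embryonic control arrays and 2987 to 3931 on transduced arrays was carried by Acta2 and Tagln, the pair that fell. The other 5 markers were near or below background in both groups, and the list's median log2 change was 0.22. The part of such cells in the rise of Notch3 was not tested.

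Among the ligands, both Delta genes fell in both modified lines, and Jag1 rose in postnatal cells. Dll1 encodes an activating ligand typical of cells that leave the progenitor state. Dll1 read 11193, 13639, 12511, 12202 and 11261 on embryonic control arrays and 3202, 3668, 3330.1, 3226 and 4034 after transduction. Dll1 read 7201, 5755, 6672, 5199.6 and 5388 on postnatal control arrays and 1769.9, 2405, 1711, 2172 and 2081 after transformation. In both comparisons the groups were clearly apart, and all 4 groups of Dll1 were free of overlap with one another. Dll1 fell 3.48-fold in embryonic cells, a log2 change of -1.80 ± 0.10 (adjusted p = 5.69e-12), and 2.97-fold in postnatal cells, -1.57 ± 0.10 (adjusted p = 5.02e-11). Without postnatal control arrays 4 and 5 the latter was -1.69.

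Dll3 encodes a divergent Delta protein that stays mostly inside the cell and does not activate receptors on neighbours. It had the largest change of the 10 genes in the embryonic comparison. Dll3 read 15298, 17439.9, 19818, 17006 and 14718 on embryonic control arrays and 782, 1224, 788, 724 and 812 after transduction. Array 2 was the highest transduced array, and the groups were far apart. Dll3 read 16198, 9837, 19944, 27145 and 25985 on postnatal control arrays and 4807, 4449.7, 4197, 4128 and 4757 after transformation. The postnatal controls were spread widely, with arrays 4 and 5 highest and array 2 lowest, but none reached down to the transformed arrays. Dll3 fell 19.4-fold in embryonic cells, a log2 change of -4.28 ± 0.20 (adjusted p = 1.14e-13). It fell 4.17-fold in postnatal cells, -2.06 ± 0.20 (adjusted p = 1.46e-08), and the change was -1.72 without postnatal control arrays 4 and 5.

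Markers of neurons and of oligodendrocyte progenitors moved in the embryonic comparison as well. All 7 neuron markers and 5 of 7 oligodendrocyte progenitor markers fell. The summed signal of the neuron markers was 58857 to 63068 on embryonic control arrays and 21893 to 24329 after transduction. That of the oligodendrocyte progenitor markers was 192502 to 217148 and then 96851 to 106190. In postnatal cells 3 neuron markers fell and 2 rose, and 2 oligodendrocyte progenitor markers fell. The part of such cells in the fall of Dll1 and Dll3 was not tested.

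Jag1 encodes a ligand of the Jagged class. Jag1 read 5447, 4919, 5012, 5773 and 6112 on embryonic control arrays and 10147, 9007, 10231, 8289.9 and 9608 after transduction. No transduced array overlapped the controls, but the change stayed under 2-fold. Jag1 read 4281, 6711, 7537, 5707 and 5777 on postnatal control arrays and 23425, 23477, 24578, 24235 and 22686 after transformation, with a wide gap between the groups. The log2 change was 0.79 ± 0.11 in embryonic cells (adjusted p = 2.47e-06) and 2.0 ± 0.11 in postnatal cells, a 4-fold rise (adjusted p = 1.37e-12). All 3 probe sets of Jag1 were called in postnatal cells, the other sets at 1.18 and 2.19. The rise was 1.98 without postnatal control arrays 4 and 5.

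In embryonic cells Hes1, Hey1 and Nrarp rose and none fell, and in postnatal cells Hes1 rose while Hes5 and Nrarp fell. Hes1 encodes a repressor whose level swings in dividing neural progenitors. Hes1 read 3574, 6067, 8384, 3039 and 9094 on embryonic control arrays and 9683, 10767, 11789.9, 11284 and 15069.9 after transduction. The controls ranged widely, arrays 1 and 4 being low, and the highest control stayed just under the lowest transduced array. Hes1 read 1092, 1542, 908, 507 and 609.6 on postnatal control arrays and 2267, 2119, 2578, 2083 and 2799 after transformation. Arrays 4 and 5 were the lowest postnatal controls and no control reached the transformed range. Hes1 rose 2.1-fold in embryonic cells, a log2 change of 1.07 ± 0.28 (adjusted p = 0.00367). This call rested on each of 3 arrays, since the change was 0.86, 0.92 and 0.98, under 2-fold, without embryonic control array 4, embryonic control array 1 or embryonic transduced array 5. In postnatal cells it rose 2.7-fold, 1.43 ± 0.28 (adjusted p = 0.000218), and by 1.02 without postnatal control arrays 4 and 5.

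Hes5 encodes a repressor that is among the most direct readouts of Notch signalling in neural progenitors, and its promoter carried the pair of RBPJ matches above. Hes5 read 29578, 50626, 56573, 31674 and 54568 on embryonic control arrays and 31977, 34512, 30369.9, 32412 and 42996 after transduction. The ranges overlapped, and no change was called. Hes5 read 10888, 5629, 4039, 12059.6 and 12508 on postnatal control arrays and 369, 711, 658, 641 and 778 after transformation. The lowest control lay far above the highest transformed array. Its log2 change was -0.33 ± 0.27 in embryonic cells (adjusted p = 0.392). In postnatal cells Hes5 fell 13.1-fold, -3.71 ± 0.27 (adjusted p = 2.55e-10), and the change was -3.32 without postnatal control arrays 4 and 5. The representing probe set, 1456010_x_at, is of a kind whose probes can match related transcripts. The second set, 1423146_at, fell as well, with a log2 change of -2.63 (adjusted p = 2.56e-09).

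Hey1 encodes a Hes-related repressor. Hey1 read 2080.2, 3047, 2939.8, 2375 and 2933 on embryonic control arrays and 14095, 14282, 14933, 13247 and 17056 after transduction, with all transduced arrays far above the controls. Hey1 read 2743, 2268, 2091, 4082 and 3782 on postnatal control arrays and 1384, 1497, 1781, 1512 and 1884 after transformation. The transformed arrays were all lower than the controls, where arrays 4 and 5 were the highest. Hey1 rose 5.52-fold in embryonic cells, a log2 change of 2.46 ± 0.16 (adjusted p = 2.97e-11). The postnatal change was -0.85 ± 0.16, short of 2-fold (adjusted p = 0.000127), and -0.55 without postnatal control arrays 4 and 5.

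Nrarp encodes a feedback inhibitor that binds the nuclear complex of Notch and RBPJ. Nrarp read 9439, 13128, 13749, 9784 and 10795 on embryonic control arrays and 33538, 32290.5, 32674, 33917 and 37326 after transduction. Every transduced array was well above every control. Nrarp read 3346, 2230.3, 2093, 2317 and 1756 on postnatal control arrays and 1136, 909.9, 1181, 1146 and 1153 after transformation, below all controls. Nrarp rose 3.01-fold in embryonic cells, 1.59 ± 0.13 (adjusted p = 2e-09). It fell 2.07-fold in postnatal cells, -1.05 ± 0.13 (adjusted p = 8.51e-07). That fall was near the threshold, at -0.91 without postnatal control array 1 and -0.98 without postnatal transformed array 2. The second probe set, 1417986_at, gave -1.49, and it was called in both lines. The postnatal change of the brighter set was -1.17 without postnatal control arrays 4 and 5.

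Proliferation genes moved with the postnatal comparison: 5 of 6 cycling markers fell, with overlapping groups for all 5, and 6 of 6 fell without postnatal control arrays 4 and 5. Their summed signal was 18721 to 145710 on postnatal control arrays and 22587 to 27462 after transformation. Astrocyte markers moved too, with 4 of 7 lower and 2 higher, and a summed signal of 47829 to 142627 on controls and 120277 to 125799 after transformation. The median log2 change of the astrocyte markers was -3.01, and -3.31 without postnatal control arrays 4 and 5. All 6 cycling and all 7 astrocyte markers were above background on every postnatal control array, and 6 and 5 of them on every transformed array. Their part in the falls of Hes5 and Nrarp was not tested, beyond the values without the 2 control arrays low in Mki67.

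**Figure D3:**
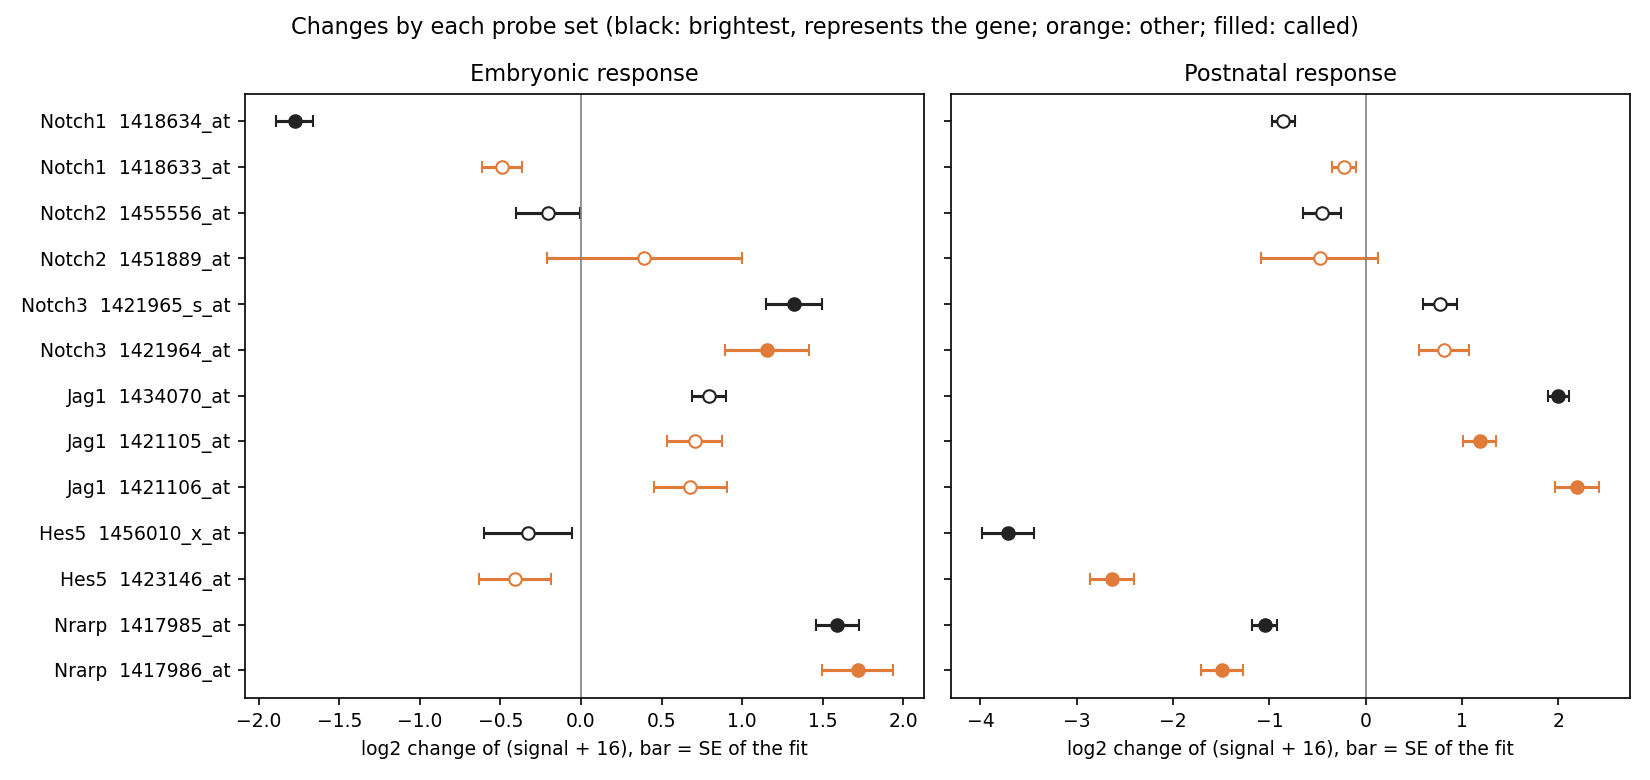
Log2 change and standard error of every probe set of the 6 genes with more than 1, in the embryonic and the postnatal comparison; black marks the set that represents the gene, orange the others, and filled points are called. The 2 sets of Notch1 differ most in embryonic cells, at -1.78 and -0.49, while all 3 sets of Jag1 and both sets of Hes5 and Nrarp are called in postnatal cells.

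Whether the lines differed in response was tested as the postnatal change minus the embryonic change. Jag1 and Dll3 gave positive differences and Hes5, Hey1 and Nrarp negative ones; of the 10 genes 2 were called higher and 3 lower, against 9.36% and 9.75% of all genes. The difference was -3.38 ± 0.39 for Hes5 (adjusted p = 3.04e-07), -3.31 ± 0.22 for Hey1 (adjusted p = 1.12e-10) and -2.64 ± 0.19 for Nrarp (adjusted p = 2.34e-10). These 3 targets were thus lower, relative to their controls, in transformed than in transduced cells. For Dll3 it was 2.22 ± 0.28 (adjusted p = 1.09e-06), a smaller fall in postnatal cells, and for Jag1 1.21 ± 0.15 (adjusted p = 9.86e-07), a larger rise. Of the other probe sets of Jag1, 1421106_at was called at 1.52 and 1421105_at was not, at 0.48. The second sets of Hes5 and Nrarp were called, at -2.22 and -3.21. Without postnatal control arrays 4 and 5 the differences were -2.99 for Hes5, -3.01 for Hey1, -2.76 for Nrarp, 2.56 for Dll3 and 1.18 for Jag1, each still called.

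No difference of the responses was called for Hes1 or Dll1, and only for Hes1 did the interval reach 2-fold. For Hes1 the difference was 0.36 (95% interval -0.47 to 1.19, adjusted p = 0.537), and -0.053 without postnatal control arrays 4 and 5. For Dll1 it was 0.23 (95% interval -0.078 to 0.54, adjusted p = 0.249). None of the 3 receptors among the 10 genes was called. Notch1 gave 0.92 (adjusted p = 8.41e-05), which passed 2-fold at 1.03 without embryonic transduced array 5. Its second probe set, 1418633_at, gave 0.27 (adjusted p = 0.257). Notch3 gave -0.55 (adjusted p = 0.0852) and Notch2 -0.25 (adjusted p = 0.553). The median difference of the 10 genes was -0.0098, beside -0.069 over all genes.

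Between control cells of the 2 origins, 7 of the 10 genes were lower in postnatal cells and none was higher, against 5.72% and 4.86% of all genes. All 3 receptors, Dll1, Hes1, Hes5 and Nrarp were the 7. The groups did not overlap for 7 of 10 genes, against 22.2% of all genes, and the median log2 difference was -1.17, beside -0.039. Among the targets the difference was -2.65 ± 0.28 for Hes1, -2.38 ± 0.27 for Hes5 and -2.29 ± 0.13 for Nrarp (adjusted p = 2.14e-07, 6.32e-07 and 2.21e-11). Group means of Nrarp were 11379 ± 1957 (SD, n = 5) in embryonic and 2349 ± 597 in postnatal controls. Hey1, at 0.13 (adjusted p = 0.61), was the only target not called. Between the same groups 4 of 7 oligodendrocyte progenitor markers and 4 of 7 astrocyte markers were higher in postnatal cells, and 3 of 7 radial glia markers and 5 of 6 cycling markers were lower. Without postnatal control arrays 4 and 5 the higher markers numbered the same, 2 radial glia markers were lower and no cycling marker was called, their median difference being -0.26. The summed signal of the radial glia markers was 315462 to 364397 on embryonic and 212770 to 306728 on postnatal control arrays. The part of these cell types in the lower levels of the Notch genes was not tested.

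The receptors were lower in postnatal controls, with log2 differences of -1.74 for Notch2, -1.29 for Notch3 and -1.04 for Notch1. Their adjusted p were 6.87e-07, 5.39e-06 and 3.85e-07. Dll1 was lower as well, at -1.01 (adjusted p = 1.4e-07), while Dll3 (0.15, adjusted p = 0.621) and Jag1 (0.12, adjusted p = 0.451) had overlapping groups. Notch1 and Dll1 were at the edge of 2-fold. Leaving out postnatal control array 5 gave -0.99 for Notch1, and leaving out arrays 4 and 5 gave -0.96. Dll1 gave -0.97 without embryonic control array 2. It gave -0.9997, -0.96 and -0.98 without postnatal control array 2, 4 or 5, and -0.89 without arrays 4 and 5. Without those 2 arrays the change of the other called genes was -2.24 for Hes1, -2.77 for Hes5, -2.16 for Nrarp, -1.44 for Notch2 and -1.08 for Notch3, each still called. The dimmer probe set of Notch2, 1451889_at, was above background on 3 or 4 of 5 arrays in each group and gave -0.17 (adjusted p = 0.879).

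For Hes5, Hey1 and Nrarp the modified lines stood further apart from each other than the control lines did, by the difference of the responses given above. All 4 targets were lower in postnatal transformed than in embryonic transduced cells. The fold was 54.4 for Hes5 (log2 -5.77 ± 0.27, adjusted p = 7.74e-14) and 30.4 for Nrarp (-4.93 ± 0.13, adjusted p = 8.73e-18). It was 9.08 for Hey1 (-3.18) and 4.9 for Hes1 (-2.29). The second probe sets of Hes5 and Nrarp gave log2 differences of -4.35 and -5.61. Notch2 and Notch3 were lower, at -1.99 and -1.84, whereas Notch1 had overlapping groups at -0.12 (adjusted p = 0.41). That holds for the brighter set of Notch1 only. The second set, 1418633_at, gave -0.86 without overlap (adjusted p = 2.97e-06), short of 2-fold. The dimmer set of Notch2 gave -1.04 and was not called (adjusted p = 0.166). Dll3 and Jag1 were higher in postnatal transformed cells, by 2.37 and 1.33, and Dll1 gave -0.79, short of 2-fold. Of the other sets of Jag1, 1421106_at was called at 1.75 and 1421105_at was not, at 0.91. In all, 2 genes were higher and 6 lower, against 11.7% and 13.7% of all genes, and 9 of 10 did not overlap, against 46.6%. The median difference was -1.92, beside -0.14 over all genes. These comparisons reuse the groups of the preceding ones, so their values are not independent of them.

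Ranked by group mean, Hey1 and Nrarp were highest in embryonic transduced cells and lowest in postnatal transformed cells, and Hes1 was highest in the former and lowest in postnatal controls. Hes5 was highest in the embryonic groups, which overlapped, followed by postnatal controls and then transformed cells. For Hey1 the 2 control groups overlapped in the middle. Jag1 was highest in transformed cells, followed by transduced cells and then the 2 overlapping control groups. Dll1 was ordered without overlap from embryonic control through postnatal control and embryonic transduced to postnatal transformed cells. Dll3 was high in both control groups, which overlapped, lower in transformed cells and lowest in transduced cells.

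In the embryonic groups the 4 targets also varied together among arrays, as seen after their values were known. On embryonic control arrays 1 and 4, each of Hes1, Hes5, Hey1 and Nrarp had its 2 lowest signals of that group. Mki67 read 34388 and 34451 on those arrays, inside the range of 32101 to 37623 of the group. On embryonic transduced array 5 each of the 4 targets had its highest signal of the group, and so did Notch1, Notch3 and Dll1. Postnatal control arrays 4 and 5 had the 2 highest signals of Hes5, Hey1 and Dll3 in their group and the 2 lowest of Hes1 and Dll1, so the targets did not move as one there.

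**Figure D4:**
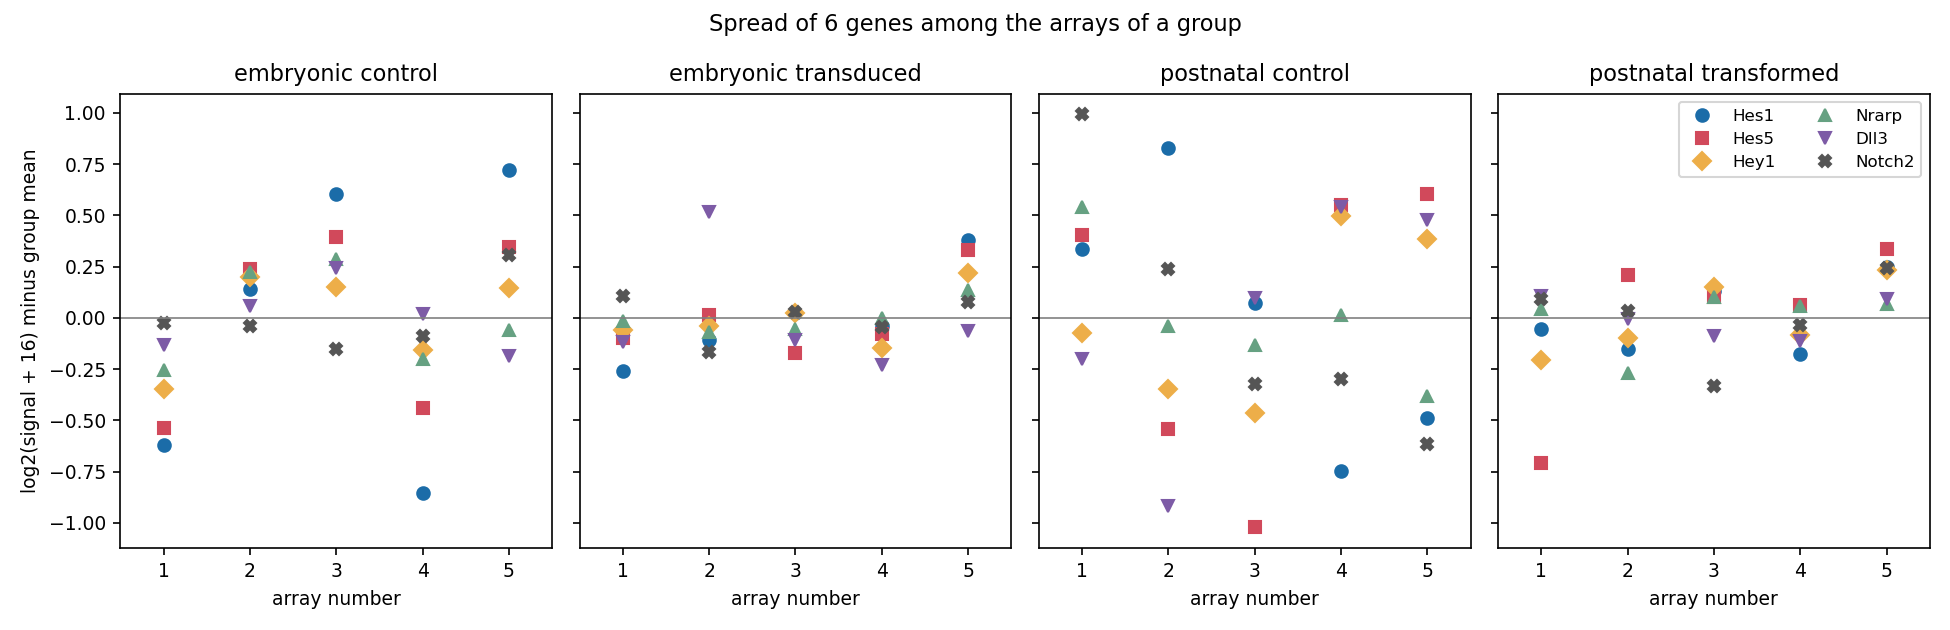
Deviation of 6 genes from their group mean, in log2(signal + 16), for arrays 1 to 5 of each group. In embryonic control cells the 4 targets lie below 0 on arrays 1 and 4, and in postnatal control cells Hes5, Hey1 and Dll3 lie above 0 on arrays 4 and 5 while Hes1 lies below.

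Other genes of the pathway were taken from a list, of which 49 were analysed here. In embryonic cells 4 rose and 8 fell, against 8.61% and 5.74% of all genes. After transformation of postnatal cells 3 rose and 3 fell, against 9.56% and 6.4% of all genes. The median log2 changes were 0.076 in embryonic and 0.033 in postnatal cells. Rbpj, the DNA-binding partner of all Notch receptors, rose in both lines, close to the 2-fold threshold. It went from 8423 ± 351 to 17922 ± 1397 in embryonic cells (log2 1.09 ± 0.097, adjusted p = 6.71e-09). In postnatal cells it went from 7737 ± 1536 to 15761 ± 1008 (1.05 ± 0.097, adjusted p = 1e-08). All 3 probe sets of Rbpj were called in embryonic cells, and 2 of 3 in postnatal cells, where 1448957_at gave 0.86. The embryonic change of Rbpj was 0.99, under 2-fold, with the arrays centred on their 75th percentile. The postnatal change was 0.99 without postnatal control array 1, 0.96 without array 2 and 0.99 with the mean of the probe sets.

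Spen, a corepressor that binds RBPJ, had a single probe set and moved in opposite directions. It rose from 1522 ± 359 to 12139.9 ± 1880.0 in embryonic cells (3.0 ± 0.16, adjusted p = 8.86e-13). It fell from 1893 ± 232 to 718 ± 117 in postnatal cells (-1.39 ± 0.16, adjusted p = 1.67e-07), and the difference of the responses was -4.39. Maml2, a coactivator of the Notch complex, fell in both, from a mean of 698 to 217 after transduction and from 657 to 298 after transformation. It was above background on 3 of 5 transduced and 4 of 5 transformed arrays. Its postnatal change of -1.29 was -0.88 without transformed array 4 (adjusted p = 0.0559). Maml1, a related coactivator, gave a difference of the responses of -1.11, from changes of 0.57 and -0.54 that were each under 2-fold. Its other well-expressed probe set, 1452188_at, gave -0.53, and the difference of the brighter set was -0.97 without postnatal control arrays 4 and 5.

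Among further receptor-binding proteins, the falls of Dner and Cntn1 in embryonic cells were the largest. Dner, a neuronal transmembrane protein described as a Notch ligand, fell from 26056 ± 2213 to 972 ± 299 (-4.78 ± 0.17, adjusted p = 1.4e-15). Its postnatal change was -0.029 (adjusted p = 0.917). Cntn1, a contactin also described as a ligand, fell from 20702 ± 1202 to 1483 ± 144 (-3.79 ± 0.073, adjusted p = 7.32e-20) and stood at 0.75 in postnatal cells. The difference of the responses was 4.75 for Dner and 4.54 for Cntn1. Dlk1, an atypical ligand that lacks the usual receptor-binding domain, rose from 445 to 1846 (2.01 ± 0.48, adjusted p = 0.00154). In postnatal cells its change was -0.91 (adjusted p = 0.138), with control arrays spread from 189 to 2395.

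Lfng, a sugar transferase that modifies the receptors' response to ligands, fell in both lines, at -1.03 ± 0.23 and -1.80 ± 0.23 (adjusted p = 0.000797 and 8.26e-07). The embryonic change of Lfng was -0.98, -0.93 and -0.95, under 2-fold, without embryonic control array 2, transduced array 1 or transduced array 3. Mfng, of the same family, gave 0.85 and -0.56, each under 2-fold, with a difference of -1.42 (adjusted p = 7.93e-05). Neurl1a, a ubiquitin ligase that acts on ligands, rose in postnatal cells by 1.73 ± 0.24 (adjusted p = 3.58e-06), and 1 of its 5 other probe sets was called as well. With the mean of its probe sets the change was 0.79. None of the 8 measured proteases that cut the receptors was called in any comparison by limma. At an unadjusted p under 0.05, 3 were higher and 2 lower after transduction, and 5 were higher and 0 lower after transformation, each change being under 2-fold. No share of all genes was counted at that threshold, so these numbers are no result about the proteases.

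Among other negative regulators, Hes6, which opposes Hes1, fell in embryonic cells, at -1.14 ± 0.067, and so did Dtx4, a Deltex ubiquitin ligase, at -1.10 ± 0.13 (adjusted p = 7.29e-12 and 4.35e-07). Bend6, which binds RBPJ and blocks its target genes, rose in postnatal cells from 1431 ± 174 to 5279 ± 356 (1.88 ± 0.13, adjusted p = 1.25e-10). Its dimmer probe set, 1446206_at, gave -0.066, and the mean of both sets 0.91. Hey2, a relative of Hey1, rose in embryonic cells, from a mean of 98.4, above background on 2 of 5 arrays, to 778 (adjusted p = 1.72e-06). None of the other 4 Hes and Hey genes was called in either line. Of these, Heyl was above background on 4 or 5 of 5 arrays in each group. Hes2 was so on at most 1 array of any group, Hes3 on 1 to 3 and Hes7 on 0 to 3. For Hes2, Hes3 and Hes7 a missing call therefore says little about a change.

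**Figure D5:**
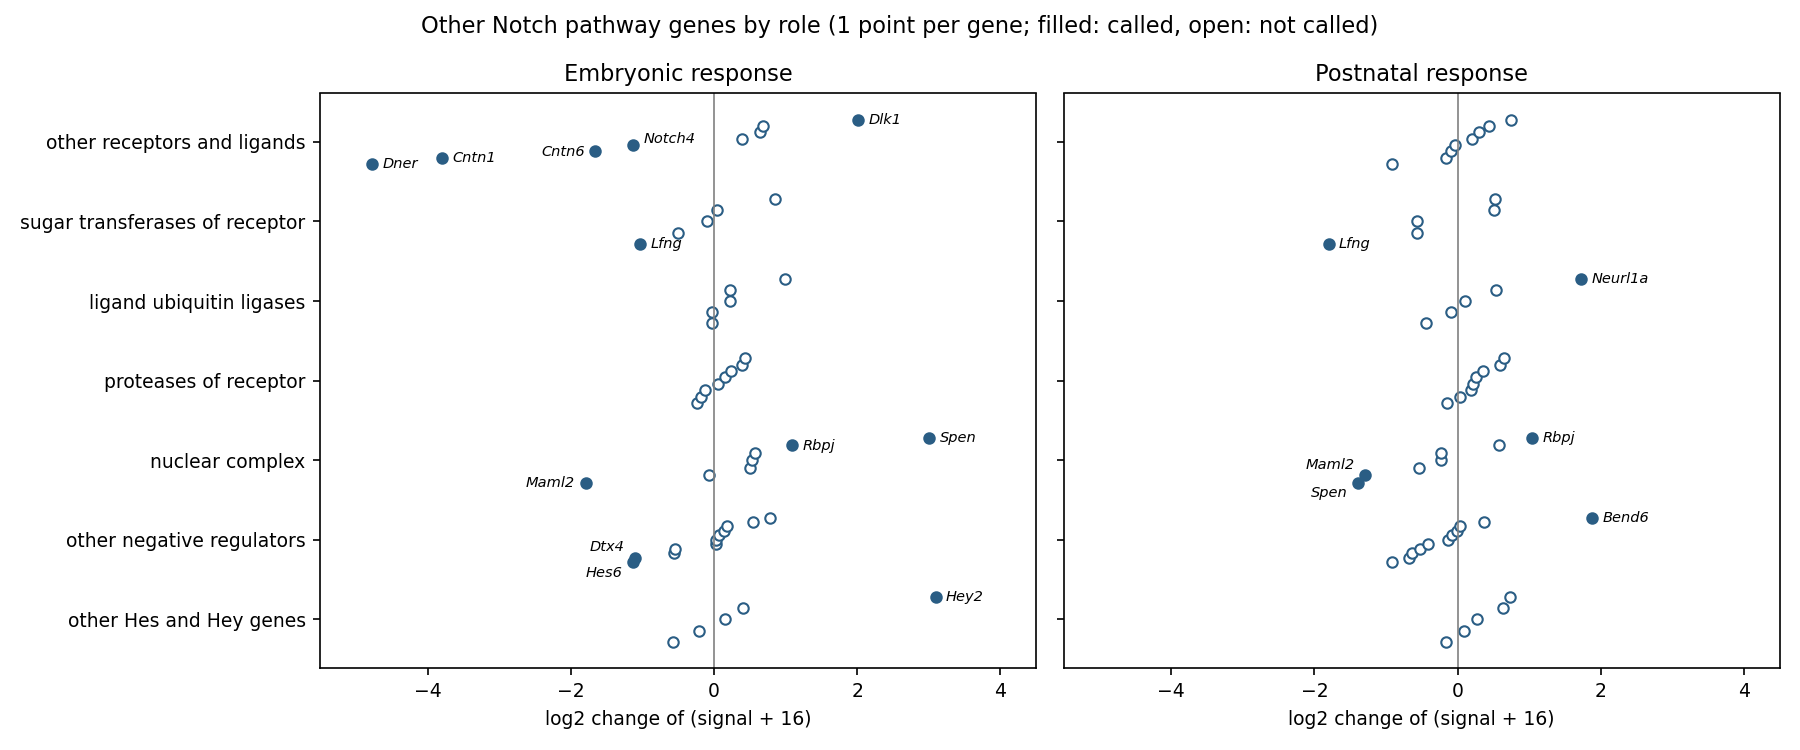
Log2 change of the other measured pathway genes by role, in the embryonic and the postnatal comparison, 1 point per gene; filled points are called and named. Dner and Cntn1 lie furthest left in embryonic cells, at -4.78 and -3.79, and Spen lies right of 0 in embryonic and left of 0 in postnatal cells, at 3.0 and -1.39.

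The responses of 6 of these 49 genes were called higher in postnatal cells and 5 lower, against 9.36% and 9.75% of all genes. Beside those given above, the difference was 1.51 for Neurl1a, 1.74 for Bend6, -2.92 for Dlk1 and -2.37 for Hey2. For Notch4, a further receptor, it was 1.58, and 1.45 without postnatal control arrays 4 and 5 (adjusted p = 0.0809). This call was also lost without any one of embryonic control array 5, postnatal control arrays 3 and 5 or transformed arrays 1, 2 and 3. The adjusted p was then 0.0533 to 0.0590 by limma. The embryonic fall of Notch4 was -1.13, and -0.63 without transduced array 3 (adjusted p = 0.0867). Notch4 was above background on 3 of 5 embryonic transduced arrays. Pofut1, which puts the first sugar on the receptors, gave 1.0 (adjusted p = 8.14e-05), at the threshold. Its difference was 0.90 to 0.9995 without any one of embryonic control arrays 1, 2 and 3, transduced array 4, postnatal control arrays 2 and 3 or transformed arrays 1, 4 and 5. Without postnatal control arrays 4 and 5, 9 of these 11 calls remained, as did all 6 calls of the postnatal comparison. In that comparison 1 further gene, of the other receptors and ligands, was then called lower.

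Between control cells 5 of the 49 genes were higher in postnatal cells and none was lower by limma. The shares over all genes were 4.86% and 5.72%. At an unadjusted p under 0.05, 12 of the 49 were higher and 12 lower. The share of all genes at that threshold was not counted, so these numbers are no result about the list. The 5 called genes were Cntn1 (1.5), Cntn6 (1.51), Dtx1 (1.13), Bend6 (1.08) and Hey2 (1.52). With the mean of the probe sets Dtx1 gave 0.43 (adjusted p = 0.084) and Bend6 0.95, and neither was called. Hey2 had overlapping groups. Of the 5 calls, 3 remained without postnatal control arrays 4 and 5, Bend6 falling short of 2-fold at 0.98 and Hey2 of the adjusted p at 0.0529. Between the modified lines 6 were higher and 6 lower in postnatal transformed cells, against 11.7% and 13.7% of all genes. The higher ones were Cntn1 (6.04), Dner (4.19), Bend6 (2.83), Dtx1 (1.66), Neurl1a (1.34) and Cntn6, which was below background on every transduced array and at least 3.26-fold higher. The lower ones were Spen (-4.05), Dlk1 (-2.29), Mfng (-1.91), Lfng (-1.56), Maml1 (-1.22) and Hes7, which was above background on 3 of 5 transduced arrays and on no transformed array. The adjusted p of Hes7 was 0.0716 without transduced array 2 and 0.0566 without transformed array 2. With the mean of the probe sets Dtx1 gave 0.92, Neurl1a 0.58 and Maml1 -0.41 (adjusted p = 0.108), and none of them was called.

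Of the proneural factors that Hes proteins repress, 5 were analysed here. In embryonic cells Neurog2 rose, from 256 to 814 (1.75 ± 0.39, adjusted p = 0.000909), and Neurod1 and Neurod4 fell. Neurod1 went from 1074 to 529 (-1.07 ± 0.28, adjusted p = 0.0033), and the change was -0.99 without transduced array 3 and -0.94 without transduced array 5. Neurod4 was 537 in controls and below background on every transduced array, at least 2.70-fold lower when the background level stands in for it (adjusted p = 1.31e-05). In postnatal cells Neurog2 was below background on every control array and 462 after transformation, at least 3.09-fold higher (adjusted p = 2.08e-06), and no other proneural factor was called. Between control cells Neurog2, Neurod1 and Neurod4 were lower in postnatal cells, by at least 1.5-fold, by a log2 difference of -2.14 and by at least 3.35-fold. Neurog2 groups overlapped there. The median of the 5 factors was 0.44 in the embryonic and -0.12 in the postnatal comparison.

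The genes whose log2 signal followed each member most closely over the 20 arrays were taken from 14032 genes above background on at least 5 arrays. Pearson's r was 0.991 for Dll3 with Idh1, 0.986 for Dll1 with Lmo3, 0.986 for Hey1 with Plod2, 0.984 for Nrarp with Armc10 and 0.982 for Notch3 with Fkbp9. It was 0.977 for Jag1 with Grb14, 0.975 for Hes5 with Cnot2, 0.974 for Notch2 with Lhfp, 0.970 for Notch1 with Peg3 and 0.970 for Hes1 with Parva. Next in order came Csrnp3 and Rap1gap for Dll3, Ptch1 and Elovl2 for Dll1, Bnip3 and Lrrc42 for Hey1, and Tenm3 and Pabpc4 for Nrarp. For the others these were Itgb5 and Fn1 for Notch3, Xpot and Clic5 for Jag1, Nexn and Rpl14 for Hes5, Cdon and Crip2 for Notch2, Rpf1 and Plp2 for Notch1, and Cavin1 and Gbx2 for Hes1. Among the members themselves Notch1 and Dll1 had an r of 0.940, Notch3 and Hes1 of 0.929, and Dll1 and Jag1 of -0.890. The 20 points fall into 4 groups, so these values mostly describe the order of the groups.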

How the data were processed

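Values were the authors' deposited series table, with 1 linear intensity per probe set and array. The deposited intensity columns had nearly the same trimmed mean on all 20 arrays (2500.01 to 2500.02 at a trim of 2%), so the arrays share a common scale. The software that made them is not given in the sources used here, nor is the normalization. Symbols came from the platform annotation: of 45101 probe sets, 34945 had 1 symbol, 932 had several and 9160 none, beside 64 control probe sets. Groups and replicate numbers came from the labels.

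Log2(signal + 16) of each gene's brightest single-symbol probe set was fitted with limma 3.58.1 in R 4.3.3, as 4 group means with an intensity trend. P-values were two-sided and Benjamini-Hochberg adjusted over 18193 genes, and a fold change is on the log2(signal + 16) scale. Where a group was below background on every array, a bound set the mean of the brighter group against background. Python 3.11.15 searched the promoters and drew the plots. The fit was tested on simulated data.

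The members and gene lists were chosen with earlier results of these data known. Every member was named, and up to 3 genes with the smallest p among the called genes of each other pathway list. Some further called genes, Notch4 among them, were named too. Alternatives covered the pseudocount, scaling, filter, probe set, fold threshold, samples fitted, trend, replicate block and omitted arrays. No dates or batches were in the labels, and the number of arrays limits the precision.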

Additional observations from a re-analysis of the deposited data

Results flagged for a closer look

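In 4 of the 40 sets of 5 arrays examined (10 genes in 4 groups), the extreme array lay further from its nearest neighbour than Dixon's critical share of the range, 0.71. Chance flags about 1 in 20 such sets. Notch2 was set apart on embryonic control array 5, its highest, by 0.727 of the range. Dll3 was set apart on embryonic transduced array 2, its highest, by 0.781. Hes5 on postnatal transformed array 1 and Nrarp on postnatal transformed array 2 were the lowest of their groups, by 0.737 and 0.853. The fall of Hes5 in postnatal cells was -3.53 on the log2 scale without that array, and the change of Nrarp -0.98, under 2-fold.

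The response differed between the postnatal and the embryonic line, by limma's test of the difference, for 5 genes. The log2 differences were 2.22 for Dll3, 1.21 for Jag1, -3.38 for Hes5, -3.31 for Hey1 and -2.64 for Nrarp. Nrarp rose in one line and fell in the other, with no overlap of groups in either, whereas Dll3 fell in both, and Jag1 was higher on every modified array than on every control of its line. The lines differ in origin as well as in the kind of modification, and these cannot be told apart.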

How the results depend on the processing

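Over all 5 comparisons, 1154 of the 1180 refitted changes of the 10 genes kept their direction and side of the threshold, 14 lost and 8 gained a call, and 4 reversed. The 4 were uncalled: Notch2 in embryonic cells turned to 0.093 with the mean of its probe sets. Without postnatal control arrays 4 and 5, the difference of the responses of Hes1 turned to -0.053, and the age differences of Dll3 and Hey1 in control cells to -0.19 and -0.17. Calls among the 10 genes moved by at most 1.5 times under every alternative. Leaving out 1 array at a time gave 6 to 7 calls in embryonic cells, 5 to 6 in postnatal cells, 5 to 6 for their difference, 5 to 7 between controls and 8 between modified cells. For the other pathway genes the ranges were 10 to 13, 5 to 7, 9 to 12, 5 and 11 to 13. With no fold threshold the called pathway genes were 27 (from 12) in embryonic cells, 28 (from 6) in postnatal cells, 24 (from 11) for the difference, 18 (from 5) between controls and 30 (from 12) between modified cells. Counting every probe set gave 10 in postnatal cells. The mean of all probe sets gave 1 higher and 4 lower pathway genes in postnatal cells, with 3 of the 6 calls shared, and 3 higher and 6 lower for the difference, with 7 of 11 shared. The embryonic rises of Rbpj and Hes1 were 0.99 and 0.98 with 75th percentile centring, which also brought the difference of Notch1 to 1.03 and moved the median difference of all genes from -0.069 to 0.042. The age difference of Notch2 in controls was -0.96 with the mean of its probe sets, 1 of which was near background. The cause of the other shifts was not tested. With the replicate block the calls were 7, 6 and 5 for the embryonic, postnatal and difference comparisons, the same genes as without it. Deviations of same-numbered arrays correlated between -0.053 and 0.032, highest with the own number for array 1 alone in both lines, so the numbers were not taken as pairs. The block was not run for the age comparisons, where numbers lie within an age.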
